A study of Drosophila melanogaster with 2 samples.

Results

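The genes described here encode the dosage compensation complex of Drosophila melanogaster: msl-1, msl-2, msl-3, mle, mof, lncRNA:roX1 and lncRNA:roX2. They were found by symbol in the Ensembl annotation, release 115, which uses dm6 coordinates, and all 7 of 7 were present among the 18164 annotated genes of the 6 arms. Chromatin immunoprecipitation followed by sequencing (ChIP-seq) had been used, per the labels, to map the DM-domain protein dmrt93B, in a transgenic line in which GFP was fused to its C-terminal end. The chromatin came from whole wandering larvae of the third instar, with the sexes pooled. The 2 biological replicates made up a single group, dmrt93B-GFP, which had no comparison group among the samples used here. The sample descriptions call these libraries input controls, against their antibody label and assay name, and this conflict was not resolved. They were grouped by the antibody label, so every value below belongs to libraries labelled as dmrt93B ChIP. Each replicate had a full list of 30000 peaks, the pooled replicates had another, and an optimal list of 4159 peaks had passed a threshold on the irreproducible discovery rate (IDR). Read depth was unknown. For each gene, every summit in the gene body or within 5 kb of it was taken, the summit being the point of highest enrichment in a peak. The signal is the peak strength written by the authors' caller, on the scale of its own list, and rank 1 is the strongest peak of a list. No mean over replicates was formed because each list had its own scale.

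Dosage compensation in flies raises transcription of the single male X chromosome to match the pair in females. MSL1 is the scaffold of the complex, MSL2 the RING-finger subunit made in males, MSL3 a chromodomain subunit that reads a mark of active gene bodies, MLE an RNA helicase and MOF the acetyltransferase that modifies histone H4 at lysine 16. The non-coding RNAs roX1 and roX2 are made from the X, assemble with the proteins, and have loci that serve as entry sites for the complex. Since males and females were pooled and whole animals used, male cells, where the complex acts, cannot be told apart from female cells in these lists.

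The sequences that the results turn on are those of the strongest summits around these genes, printed on the plus strand of the NCBI Release 6 genome with capitals marking any match to the motifs searched. Each window spanned 50 bp on either side of its summit. The first lay upstream of mof at chrX:5880670-5880727, cut to the stretch outside annotated untranslated regions. The next were the optimal summit upstream of roX2 at chrX:11576681-11576781, the weaker pooled summit just past the end of roX2 at chrX:11580471-11580571, and the strongest pooled summit upstream of roX1 at chrX:3867143-3867243. The last was the only entry within 500 bp of the start of msl-1, from the replicate 2 list, at chr2L:18688872-18688972.
mof, optimal: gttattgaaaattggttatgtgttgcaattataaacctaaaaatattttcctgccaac
roX2, optimal: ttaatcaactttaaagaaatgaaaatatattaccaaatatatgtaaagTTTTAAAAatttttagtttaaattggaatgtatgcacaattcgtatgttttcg
roX2, pooled: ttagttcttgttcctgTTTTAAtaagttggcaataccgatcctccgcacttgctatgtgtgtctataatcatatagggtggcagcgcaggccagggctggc
roX1, pooled: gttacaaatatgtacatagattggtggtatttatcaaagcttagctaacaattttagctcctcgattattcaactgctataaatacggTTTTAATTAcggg
msl-1, replicate 2: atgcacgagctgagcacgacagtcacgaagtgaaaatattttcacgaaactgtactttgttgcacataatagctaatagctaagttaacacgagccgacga

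No optimal summit lay in the body or promoter of a dosage compensation gene, and 2 lay in their flanks. An optimal summit lay in the window of 2 of 7 genes, mof and roX2 (28.6%, exact 95% interval 3.67 to 71.0, counting error only), against 34.6% of all annotated genes. No member had an optimal summit in its body, where 8.08% of all genes had one. No member had an optimal summit within 500 bp of its own transcription start site (TSS), that is, in its promoter (0 of 7, exact interval up to 41.0%), against 11.3% of all genes. With 7 genes, both intervals include the share of all genes. The windows of the members covered 97.1 kb and held 2 optimal summits, 20.6 per Mb, beside 31.1 per Mb over the arms as a whole. The members had a median length of 3895 bp, against 1656 bp for all genes, so their windows were not short ones.

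**Figure D1:**
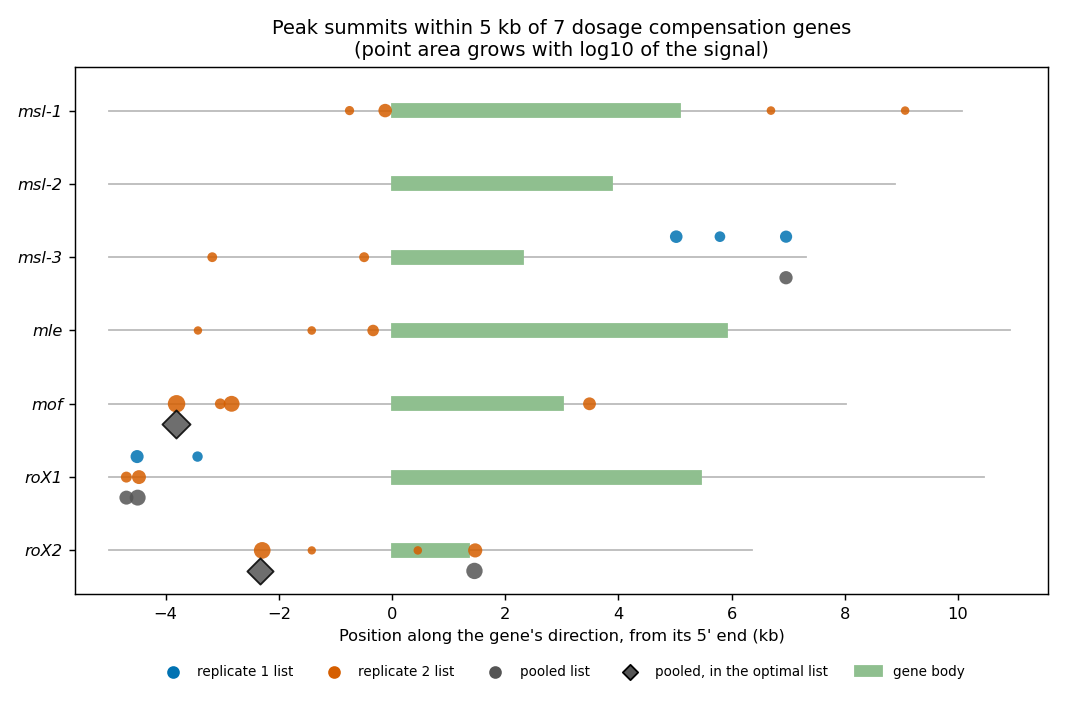
Summits in the windows of the 7 genes, drawn along each gene's own direction from its 5' end (kb), with green bars for gene bodies, colours for the lists and point area growing with log10 of the signal. The 2 optimal summits (diamonds) lay upstream of mof and roX2, and a single replicate 2 entry, in roX2, fell inside a gene body.

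Both summits of the optimal list were on the X chromosome. An optimal summit was found at 2 of 3 X-linked members (mof, roX1 and roX2; exact interval 9.43 to 99.2%), against 37.5% of all X genes. Among the autosomal members it was 0 of 4 (msl-1, msl-2, msl-3 and mle; exact interval up to 60.2%), against 34.1% of all autosomal genes. No test compared the X-linked and autosomal members, which were not shown to differ. Each interval is wide and includes the share of genes given beside it.

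The summit assigned to mof (FBgn0014340, chrX:5873840-5876853, minus strand) was the strongest of the set. It lay at X position 5880677, in a narrow peak of 210 bp (chrX:5880568-5880777), and 3824 bp upstream of the gene. Its signal was 368 and its rank 1024 in the optimal list and in the pooled list. In the replicate 2 list the matching entry lay 15 bp away, with a signal of 147 and rank 1276. In the replicate 1 list no entry lay within 200 bp, and the nearest was 5498 bp away. The summit was inside CG16721, 142 bp upstream of one of that gene's starts and downstream of another. The matching replicate 2 entry lay 128 bp downstream of that other start. The other nearest gene by TSS was Usp30, which encodes a deubiquitinase, 890 bp away. Of all genes, 14.7% had an equal or stronger pooled entry in their own windows. Replicate 2 listed 3 further entries around mof, at 2836 and 3036 bp upstream, with signals of 86.1 and 21.7, and 476 bp past its 3' end, with a signal of 35.5. Their nearest starts were those of Usp30, CG16721 and GAA1, none of them mof itself.

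The optimal summit at roX2 (FBgn0019660, chrX:11579065-11580432, plus strand) lay at X position 11576731, in a peak at chrX:11576519-11576942 and 2334 bp upstream of the gene. It had a signal of 218 and rank 2068 in the optimal list, close to its middle. Replicate 2 had an entry 39 bp away with a signal of 113 and rank 1851. Replicate 1 had none within 200 bp, and its nearest entry was 33902 bp away. This summit lay between 2 diverging genes, 111 bp upstream of e(y)2, which encodes a small subunit shared by the SAGA and TREX-2 complexes, and 152 bp upstream of CG11695. Of all genes, 23.7% had an equal or stronger pooled entry in their windows.

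A weaker summit stood nearer to roX2 itself. The pooled list had an entry at X position 11580521, 89 bp past the 3' end of roX2, with a signal of 101.1 and rank 4709, just below the 4159 of the optimal list. Replicate 2 had its counterpart 102 bp past the end, with a signal of 51.2 and rank 5241. Its nearest start was that of nod, a gene for a kinesin-like protein of chromosome segregation, 251 bp from the pooled summit. Replicate 2 also listed an entry inside roX2, 455 bp past its start, with a signal of 14.0 and rank 27699, and another 1419 bp upstream with a signal of 13.5 and rank 28781. Both stood near the lower end of that list, whose lowest signal was 13.1. Replicate 1 listed nothing in the window.

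roX1 (FBgn0019661, chrX:3857230-3862697, minus strand) was the member where both replicates had matching entries. The pooled summit at X position 3867193, 4496 bp upstream of the gene, had a signal of 88.2 and rank 5423, below the optimal list. Replicate 1 had an entry at position 3867203 with a signal of 37.8 and rank 6686, and replicate 2 one at 3867170 with a signal of 47.6 and rank 5756. The site lay in yin, which encodes a peptide transporter, 476 bp from one of its starts. A second pooled summit 4695 bp upstream of roX1 had a signal of 49.0, with a replicate 2 entry of 22.8, and replicate 1 listed a separate entry 3438 bp upstream with a signal of 20.1. The gene body of roX1 held no entry in any list.

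Of the autosomal members, msl-1 (FBgn0005617, chr2L:18683720-18688800, minus strand) had a promoter entry in a single replicate. Replicate 2 listed it at 2L position 18688922, 122 bp upstream of the TSS of msl-1, with a signal of 42.6 and rank 6589, and 50.8% of all genes had an equal or stronger replicate 2 entry in their windows. The other 3 replicate 2 entries there had signals of 14.0, 14.3 and 15.9 and lay nearer to CG31751, to tos, an exonuclease gene, and to CG10336. Replicate 1 and the pooled list had none. msl-2 (FBgn0005616, chr2L:3462218-3466112, minus strand), the subunit made in males, had no entry in any of the 4 lists.

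msl-3 (FBgn0002775, chr3L:7123213-7125533, minus strand) was the other member besides roX1 with entries in both replicates, but at different sites. Replicate 1 listed 3 entries downstream of the gene, 2702, 3474 and 4643 bp from it, with signals of 33.6, 21.4 and 30.4, all within the formin gene form3. Replicate 2 listed 2 entries upstream, 494 and 3178 bp from it, with signals of 18.3 and 17.9, nearest to BBS1 and Acbp6. The pooled list held 1 entry, at the farthest of the replicate 1 sites, with a signal of 39.9 and rank 14478. The sequence within 50 bp of it had a GC content of 73.3%, beyond the upper quartile of 37.6% for optimal summits.

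mle (FBgn0002774, chr2R:5974857-5980778, minus strand) had replicate 2 entries only. The strongest lay 335 bp upstream of its TSS with a signal of 25.9 and rank 12517, and the other pair, with signals of 14.2 and 13.7, lay in the kinase gene Src42A. mle also stood farthest from the optimal list, its nearest optimal summit being 95911 bp away, a distance that 3.74% of all genes reached or exceeded.

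**Figure D2:**
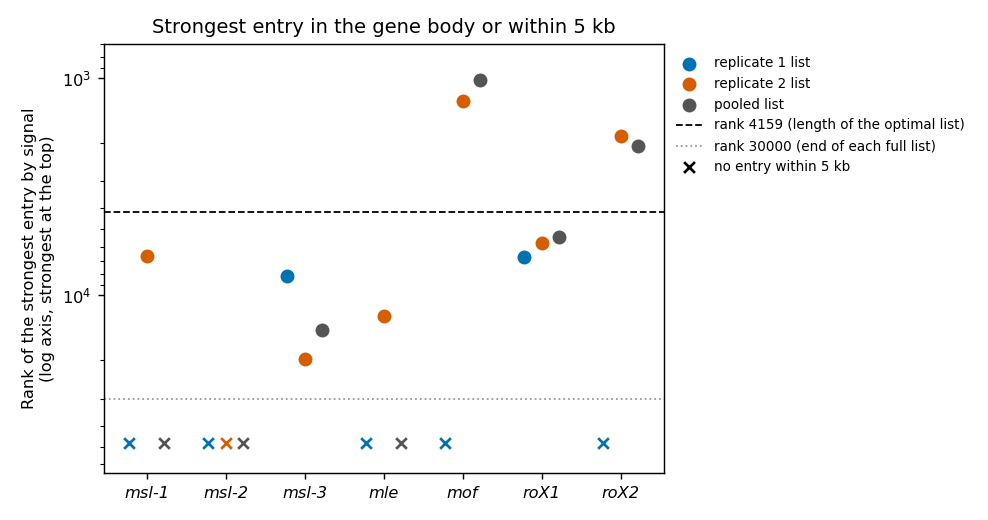
Rank by signal of the strongest entry in the gene body or within 5 kb, on a log axis with the strongest at the top, for each gene in the 3 full lists. Only mof and roX2 had an entry stronger than rank 4159, in replicate 2 and in the pooled list. Crosses mark lists with no entry.

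The replicates differed in these windows. Replicate 1 listed an entry for 2 of 7 members, msl-3 and roX1, against 67.7% of all genes, and replicate 2 for 6 of 7, against 79.7%. The pooled list had 4 of 7, against 74.3%. In the members' windows replicate 1 held 5 entries, 51.5 per Mb, and replicate 2 held 19, 196 per Mb, while both lists, being of equal length, averaged 224 per Mb over the arms. The pooled list held 6, 61.8 per Mb. An entry in replicate 2 with none in replicate 1 occurred at 4 of 7 members, msl-1, mle, mof and roX2, against 26.1% of all genes. A promoter entry of a member was found in replicate 2 for 4 of 7 (msl-1, msl-3, mle and roX2), against 42.2% of all genes, and in replicate 1 for 0 of 7, against 23.7%. The replicate 2 count in the windows was within 1 gene of the share of all genes, and its density there was below that of the arms. What set the replicates apart was not tested.

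**Figure D3:**
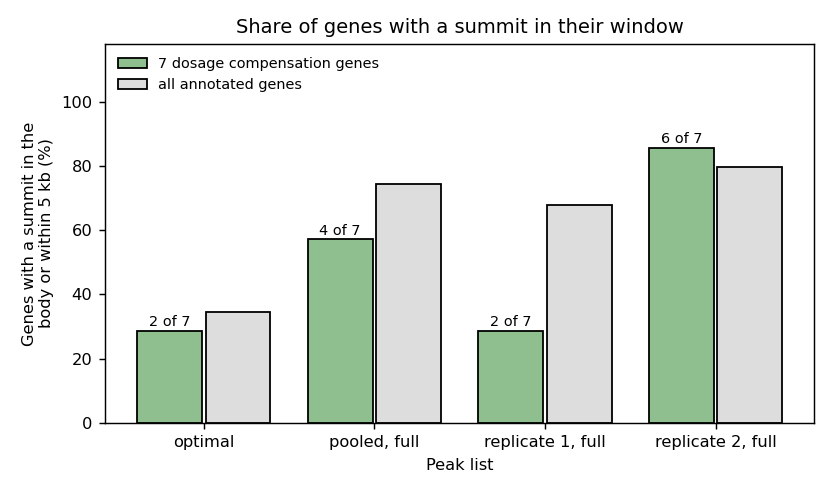
Percentage of genes with a summit in the body or within 5 kb, for the 7 dosage compensation genes (green) and all annotated genes (grey), in each peak list. The members had 2 of 7 in the optimal list and in replicate 1, 4 of 7 in the pooled list and 6 of 7 in replicate 2.

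Both optimal summits of the members lacked a replicate 1 entry within 200 bp. Over the whole optimal list this held for 12.7% of summits, and for 14.1% of those on the X. The absence at roX2 extended over a wide stretch: within 50 kb of that summit replicate 1 listed 3 entries, replicate 2 listed 44 and the pooled list 21, and neither of the 2 other optimal summits there had a replicate 1 match. A distance to replicate 1 as long as that of the roX2 summit was found for 20 of the 4159 optimal summits (0.481%). Around mof the lists were less unequal, with 28 entries of replicate 1, 51 of replicate 2 and 38 pooled, and 8 of the 9 other optimal summits had a match in replicate 1. Both summits were also in the pooled list, so the values at mof and roX2 rest on replicate 2 and the pool, with no value from replicate 1. How these peaks passed the IDR threshold was not given in the sources used here.

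The 5 kb limit fell among the members. Inside it were roX2 at 2334 bp and mof at 3824 bp from the nearest optimal summit, and just outside it msl-1 at 5298 bp and roX1 at 5967 bp. msl-3 followed at 8694 bp and msl-2 at 9923 bp. The nearest summit of roX1, at X position 3868664, had a signal of 761 and rank 245, with 435 in replicate 1 and 327 in replicate 2, and lay 309 bp upstream of CG2930. That of msl-1, at 2L position 18678422, had a signal of 287, with 111 in replicate 2 and no match in replicate 1, and lay 294 bp upstream of CG31751. The nearest summit of msl-3, with a signal of 542 (340 in replicate 1 and 202 in replicate 2), lay 289 bp upstream of melt, a growth and fat storage gene, and that of msl-2, with a signal of 125 (71.1 in replicate 1 and 57.1 in replicate 2), 308 bp upstream of lncRNA:CR43928. For mle it was a promoter summit of CG7849 with a signal of 757, with 437 in replicate 1 and 322 in replicate 2. Within 10 kb, 6 of 7 members had an optimal summit, against 48.4% of all genes.

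The nearest optimal summit was a promoter summit of another gene for all 7 members, 111 to 309 bp upstream of the nearest start of that neighbour. At mof the neighbour, CG16721, had another start on the other side of the summit, which was thus not only upstream. Over all genes the nearest optimal summit was a promoter summit in 57.1%, counting either side of any start, the gene's own included. The members' median distance to it was 5967 bp, and that of all genes 10649 bp. This pattern was noticed after the values were seen and has no test.

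**Figure D4:**
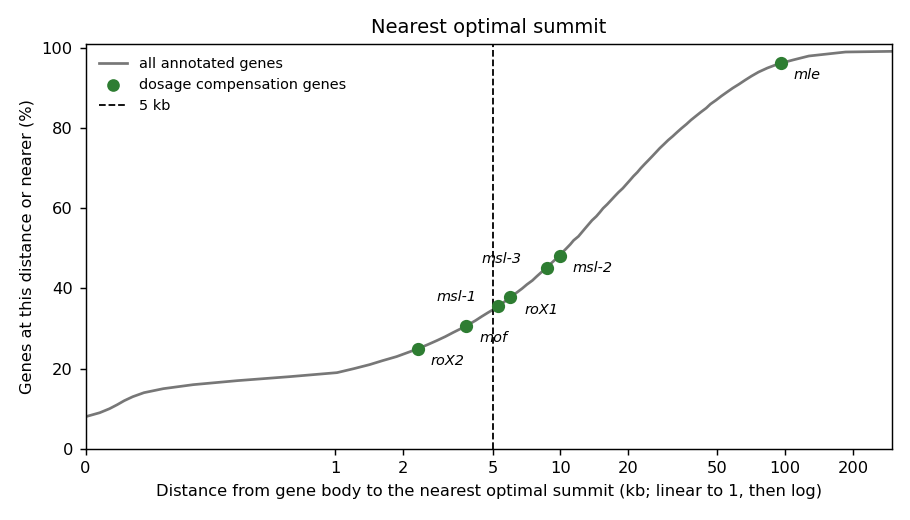
Distance from the gene body to the nearest optimal summit (kb, linear up to 1 and logarithmic beyond) for the dosage compensation genes (green), placed on the cumulative curve of all annotated genes (grey). roX2 and mof lay inside the 5 kb line, msl-1 and roX1 just beyond it, and mle far along the curve at 95.9 kb.

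The sequences at the members' summits held few of the 6 motifs searched, on both strands, within 50 bp of the summit. GAGAGAGA, the core of the MSL recognition element that also binds CLAMP and GAGA factor, was at neither optimal summit, and 0.481% of all optimal windows of that length held it. The DRE core TATCGATA, held by 0.986%, and the DM-domain sites ACAATGT or ACATTGT, held by 2.04%, and TGTATCA, held by 1.32%, were at neither as well. The homeodomain site TAATTA, in 10.8% of optimal windows, was at neither of them. It was at the roX1 pooled summit printed above and at the nearest optimal summit of msl-1. TTAAAA was at the roX2 optimal summit, in 2 overlapping matches on opposite strands. The other roX2 and roX1 summits printed above held 1 match each, and the TAATTA and TTAAAA matches of roX1 overlap. The mle promoter entry of replicate 2 held 3 TTAAAA matches, and the nearest optimal summit of msl-3 held 1. TTAAAA was in 33.8% of optimal windows and 18.6% of pooled ones. The nearest optimal summit of mle, 95911 bp from the gene, held TGTATCA. No other member's nearest optimal summit held a DM-domain site. The roX2 optimal window had a GC content of 19.8%, a value that 3.97% of optimal windows matched or fell below, and the mof window had 32.7%, beside a median of 31.7% for all optimal summits.

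In the whole windows GAGAGAGA was found at 4 sites, matches within 8 bp being merged. roX2 held 2, inside the gene 1151 and 1205 bp past its start and 305 and 251 bp from the pooled summit past its 3' end, while msl-1 and mle held 1 each, inside the gene. The windows of msl-2, msl-3, mof and roX1 had none. Of stretches of 14 kb along the arms, about the median length of the members' windows, 48.9% held at least 1 match.

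Genes that act with the complex were looked up in the same way, the list of them chosen with earlier results of these data known. Of 20 such genes 19 matched a single symbol, and 10 of them (52.6%) had an optimal summit in the window, against 34.6% of all genes, with a promoter summit at 6 (31.6%), against 11.3%. In the NSL complex, which shares mof, it was 4 of 6. These were nsl1 (signal 120), Rcd5 (262), Rcd1 (1187, at the promoter of CG13018) and wds (705, nearest to egh). The nsl1 summit lay 109 bp upstream of its TSS, with 67.9 in replicate 2 and no match in replicate 1. That of Rcd5 lay 150 bp upstream of its TSS but nearer, at 88 bp, to the start of CG11593. Among repressors of msl-2 it was 2 of 4, Sxl, the female switch gene (329, with 190 in replicate 1 and 144 in replicate 2), and Unr (194, with 110 in replicate 2 and no match in replicate 1). Of the recruiting factors Trl, which encodes GAGA factor, had 3 summits in its body, the strongest with a signal of 1667, whereas Clamp had none. Among chromatin genes of the male X it was 3 of 6. The gene for the heterochromatin protein HP1a had the strongest summit (1269, at the promoter of CG8360) and the only promoter summit of the group (165, 137 bp upstream of its TSS). That promoter summit was nearer, at 88 bp, to the start of Ssb-c31a. The histone kinase gene JIL-1 had 121 and Top2 759, the last at the promoter of Hs2st, 2497 bp downstream of Top2. None of these shares was tested. The nuclear pore gene Nup153 had none.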

How the data were processed

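The members, gene lists and alternatives were chosen with earlier results of these data known. Per the labels and text deposited with the samples, the files are peak lists on dm6: a full list for each replicate and for their pool, and the optimal list derived from these by an IDR threshold. The aligner, caller and threshold were not given in the sources used here. The signal in these deposited lists is the authors' peak strength. The deposited −log10 q value was at its ceiling for both optimal member peaks (3.91) and was not used for ranking. Separate control libraries were not analysed here, and depth is unknown.

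Summits were taken as start plus offset, written from 1. Genes and starts came from the Ensembl annotation, release 115, leaving out transposable elements. Windows of 5 kb, matches within 200 bp, promoters of 500 bp and sequence windows of 50 bp to each side were used. Shares carry exact Clopper-Pearson intervals of 95%, which cover counting error only. They treat genes as independent draws, although the members are a fixed list. No test was made, since there is 1 group of 2 replicates, whose spread is given list by list. Genes named were the members, 20 related genes and the nearest genes of member summits. 1 related symbol, Mtor, matched no gene and, by synonym, more than one, so it was left out. The genes most like the strongest member summit by rank in both replicates could not be named, because that summit has no replicate 1 entry. Window, promoter and motif searches were checked on simulated data with known positions. Alternatives changed the window, list, match, promoter and sequence lengths. Python 3.11.15, numpy 2.4.6, pandas 2.3.3, scipy 1.17.1 and matplotlib 3.10.9 were used.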

Additional observations from a re-analysis of the deposited data

How the results depend on the processing

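The count of members with an optimal summit, 2, was 0 with the gene body alone (8.08% of all genes), 0 with a window of 2 kb (23.6%) and 6 with one of 10 kb (48.4%), where mle was the exception. The count of their summits, 2, was 0, 0 and 7 in the same windows and 4 in the 8318 strongest pooled peaks. With the 4159 strongest peaks of 1 replicate alone, the members ranged from 0 to 2 and their summits from 0 to 3, the zeros being those of replicate 1. Of all genes, 29.7% had such a summit with replicate 1 alone and 40.5% with replicate 2 alone. The count of related genes, 10, was 3 with the gene body alone and it ranged from 8 to 15 between the replicates. The counts of 0 for members with a promoter summit and for summits matched in both replicates, and of 1 for summits holding a motif, did not change under the alternatives run. Some of these could not change them, since a shorter match or promoter cannot raise a 0. A longer sequence window cannot lower the 1. The nearest replicate 1 entries, 5498 and 33902 bp away, lay beyond every match length tried. The cause of the shifts in the other counts was not tested, beyond the wider or narrower window itself. No paired analysis was possible because there is a single group. Read depth is unknown, so the absence of an entry sets no limit on binding.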
